A study of Mus musculus with 212 samples.

Results

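The genes described here encode the chains of the collagens, and were followed through time courses of cultured mouse skin fibroblasts with and without the clock gene Bmal1. Members were the rows of the expression table whose mouse symbol is Col, a number, a and a number, with a mean of at least 0.5 FPKM in any of 10 courses. FPKM is the number of fragments scaled to transcript length and to library size. Of 44 such genes in the table of 47631 genes, 30 reached that level. The lowest that did were Col8a2, with 0.91 FPKM in its highest course, and Col6a5, with 0.94. The highest that did not were Col17a1, with 0.441 FPKM, and Col6a4, with 0.418.

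Collagens are extracellular proteins in which 3 chains wind into a triple helix, and most of the strength of skin comes from them. The fibril-forming collagens I, III and V build the fibres. Fibril-associated collagens bind the surface of those fibres, collagen IV makes the sheet of basement membranes, collagen VI makes beaded filaments, and collagen VII anchors the epidermis to the dermis. Chains are modified and folded in the endoplasmic reticulum, secreted, trimmed and crosslinked, and the cells bind the product through integrins and discoidin domain receptors. Dermal fibroblasts are the main source of this matrix. BMAL1 is a transcription factor of the circadian clock that pairs with CLOCK and binds the E-box motif.

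All cultures were C57BL/6 mouse skin fibroblasts, either wild type (WT) or Bmal1-/-, grown to confluence and given 100 nM dexamethasone for 15 min, a steroid pulse that aligns the clocks of the cells. They were then held in HEPES-buffered medium and first harvested 48 h later. The courses named AM and PM ran from CT0 (circadian time) to CT48 every 3 h, with 17 libraries for each genotype. Those at 27, 32 and 37 °C ran from CT0 to CT46 every 2 h, with 24 libraries for each genotype. What AM and PM stand for and how many cell preparations each genotype came from, the labels do not say, and they do not name the deleted part of Bmal1. Every time point had 1 library, so genotype or temperature cannot be told apart from culture, and p-values measure only the spread between the time points of a course.

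Of 212 libraries, 210 were used. The pair at CT14 and 27 °C goes against its labels, and both were left out. In the library labelled WT, Col8a1 was at 0.999 FPKM and Col4a6 at 11.69, while in the one labelled Bmal1-/- Col8a1 was at 32.82 and Col4a6 at 2.097. Estimated depth, read from the steps between low FPKM values and given in M reads, ran from 9.92 to 32.22, and its low end is uncertain. All 8 fibroblast markers had a mean of at least 1 FPKM in every course. Summed keratinocyte, endothelial and skeletal muscle markers had medians of at most 4.61, 4.99 and 0.392 FPKM in any course. Other lists stood higher, with course medians of up to 325.9 for pericyte and smooth muscle and 204.6 for adipocyte markers. Macrophage, cartilage and bone, and melanocyte and Schwann cell markers reached 32.5, 19.6 and 17.96 FPKM. Transcripts of Arntl, the gene of Bmal1, were present in both genotypes, with course medians from 5.03 to 7.91 FPKM, which does not check the label because the deleted part is not given. Since these are bulk samples, fewer cells of a type and less RNA per cell cannot be told apart.

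Fibril-forming chains held the highest levels. Col3a1, the single chain of collagen III, had the highest mean FPKM of the 30 members in each of the 10 courses, from 2380 FPKM in WT at 27 °C to 9538 in Bmal1-/- PM. Col1a1 and Col1a2, the chains of collagen I, followed it. Next in most courses came Col6a1 and Col6a2, both of collagen VI. At the low end, Col24a1, Col6a5, Col8a2 and Col28a1 stayed under a mean of 1 FPKM over the libraries of each fit and were not tested, and Col9a3 and Col11a2 were tested only in AM and PM. That left 26 members tested in AM and PM and 24 at the 3 temperatures. As a share of summed FPKM, leaving out the small RNA gene Gm26377, the members took 2.90% in WT AM, 2.81% in Bmal1-/- AM, 2.87% in WT PM and 2.77% in Bmal1-/- PM. The share was 2.07% in WT and 2.32% in Bmal1-/- at 37 °C, 1.34% and 1.45% at 32 °C, and 0.955% and 1.29% at 27 °C. Gm26377 was set aside because it took 18.84 to 34.15% of summed FPKM at 32 °C and at most 2.51% elsewhere. Of the 14 genes under the minimum, the cartilage chains Col2a1 and Col9a1 had highest course means of 0.0646 and 0.000755 FPKM.

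**Figure D1:**
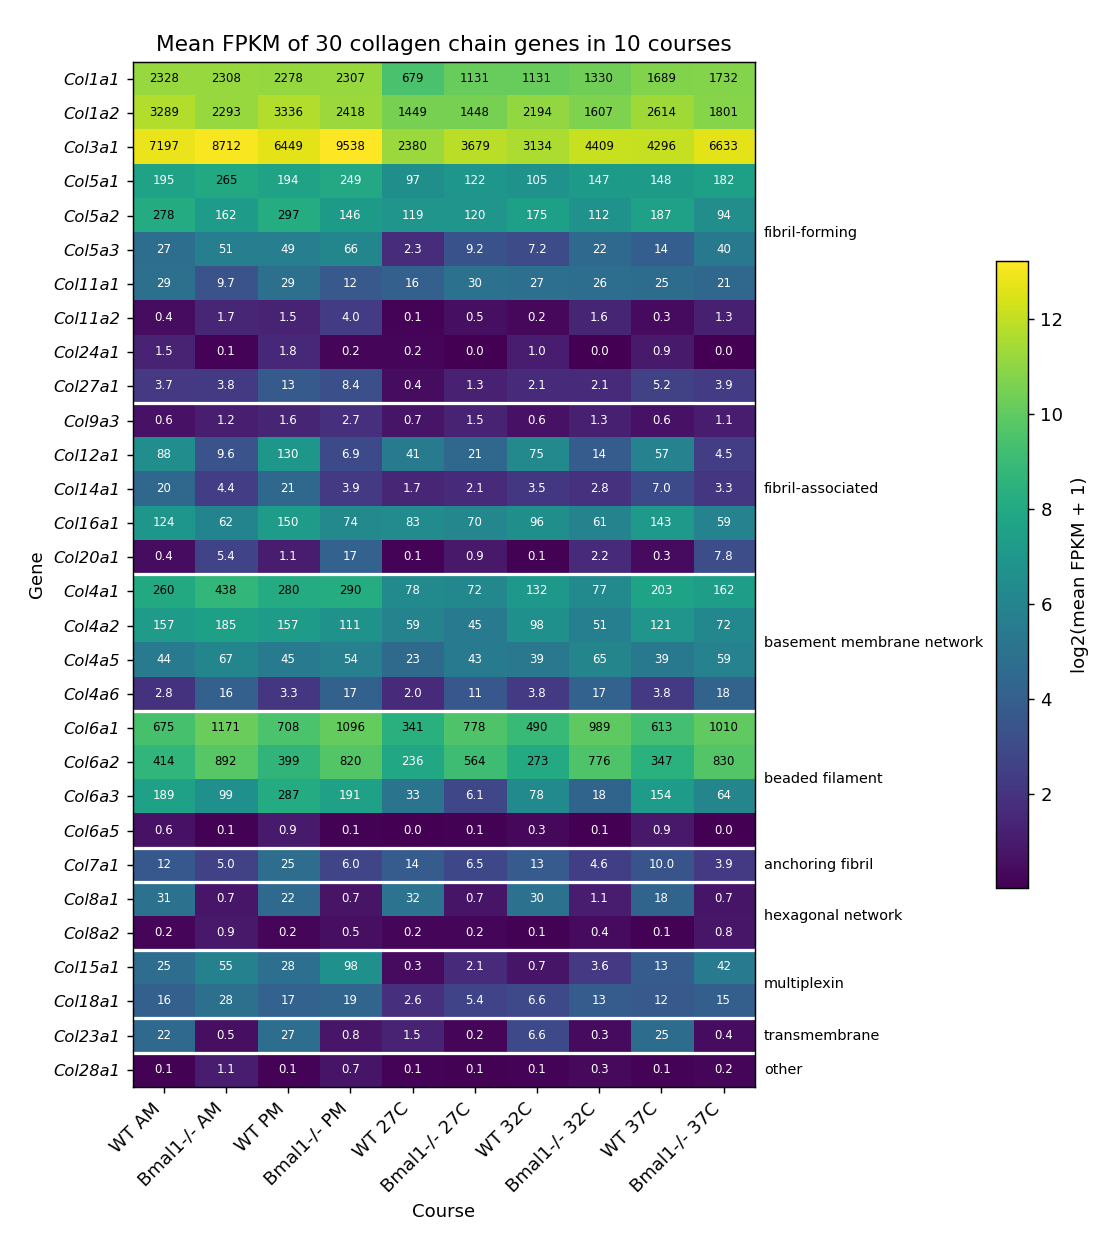
Mean FPKM of the 30 members (rows, by class) in the 10 courses (columns), coloured on the scale log2(mean FPKM + 1) and printed in each cell. Col3a1, Col1a1 and Col1a2 are the brightest rows throughout, and Col8a1, Col12a1 and Col23a1 alternate between WT and Bmal1-/- columns.

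The genotype comparison asks how the levels of each chain differed when Bmal1 was missing. Col8a1, Col23a1 and Col12a1 were far lower in Bmal1-/- cells, Col7a1 was also lower, and Col4a6, Col20a1, Col15a1 and Col6a2 were higher, in AM and PM and again across the 3 temperatures. The main collagen I chain Col1a1 did not pass in either set. A difference is given as Bmal1-/- minus WT on the log2(FPKM + 1) scale, which understates changes of low genes, and was called where limma gave an adjusted p below 0.05, the size was 2-fold or more and the sign was shared by AM and PM or by the 3 temperatures. In AM and PM, 4 of 26 members were called higher, against 7.01% of all genes tested, and 6 were called lower, against 7.53%. Over the temperatures 5 of 24 were called higher, against 5.92% of all genes, and 5 lower, against 7.01%. The members' median difference was 0.21 in AM and PM, where that of all genes was -0.00, and 0.16 over the temperatures, where it was -0.02. An adjusted p under 0.05 alone was reached by 86.3% and 90% of all genes in the 2 sets, so the calls rest on the 2-fold limit. With library totals set equal without Gm26377, the all-gene median in AM and PM moved to -0.20, the share of higher calls among all called genes went from 48.2% to 32.1%, and 3 members were called higher and 8 lower. Of the 13381 genes tested in that setting, 662 were called higher and 1402 lower.

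Among the fibril-forming chains, those of collagen I moved apart. Col1a1 (ENSMUSG00000001506, chr11:94936224-94953042, GRCm38 as for all coordinates here) ran from 1903 to 3016 FPKM in WT AM with a median of 2269, and from 1822 to 2850 in Bmal1-/- AM with a median of 2291. These ranges overlapped almost fully, and the fitted difference in AM and PM was 0.01 (SE 0.04, adjusted p = 0.837), or -0.02 with median-of-ratios scaling. Col1a2 (chr6:4504814-4541544) ran from 2845 to 3794 FPKM in WT AM, median 3272, and from 1866 to 2750 in Bmal1-/- AM, median 2367. The Col1a2 ranges did not overlap there, and Bmal1-/- was the lower at all 34 matched time points of AM and PM, yet the difference of -0.50 (SE 0.02, adjusted p = 5.26e-27) stayed under 2-fold. Over the temperatures Col1a1 differed by 0.33 (SE 0.03, adjusted p = 1.32e-21) and Col1a2 by -0.33 (SE 0.02, adjusted p = 7.37e-39). Col1a1 was 0.74 higher in Bmal1-/- at 27 °C and 0.00 different at 37 °C, while Col1a2 differed by 0.00 at 27 °C and by -0.56 at 37 °C.

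Collagen I is built from 2 Col1a1 chains and 1 Col1a2 chain, and their transcript ratio was read in each library. The Col1a1 to Col1a2 ratio of FPKM averaged 0.705 ± 0.0392 in WT AM (SD over time points, n = 17) and 1.01 ± 0.0521 in Bmal1-/- AM. It was 0.679 ± 0.0491 and 0.954 ± 0.0477 in PM. At 37 °C it was 0.645 ± 0.0301 in WT and 0.953 ± 0.0913 in Bmal1-/- (n = 24). In each of these sets the lowest Bmal1-/- library lay above the highest WT library. The ratios are a description and carry no test.

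Col3a1 (chr1:45311538-45349706) and the collagen V chains differed as well, in both directions. Col3a1 ran from 4991 to 8400 FPKM in WT PM, median 6299, and from 6881 to 10601 in Bmal1-/- PM, median 9702. It was higher in Bmal1-/- at 31 of 34 time points in AM and PM and at 71 of 71 over the temperatures, with differences of 0.42 (SE 0.03, adjusted p = 2.01e-19) and 0.58 (SE 0.02, adjusted p = 3.8e-66), under the 2-fold limit. Collagen V nucleates collagen I fibrils and limits their width. Of its chains, Col5a1 differed by 0.41 (SE 0.03, adjusted p = 2.46e-18) in AM and PM and Col5a2 by -0.90 (SE 0.03, adjusted p = 2.47e-34), in opposite directions, neither of them called. Col5a2 (chr1:45374321-45503282), which lies beside Col3a1, ran from 240.0 to 333 FPKM in WT AM, median 271, and from 144 to 184 in Bmal1-/- AM, median 161. It was lower in Bmal1-/- at all 34 time points of AM and PM. The Col5a1 to Col5a2 ratio was 0.705 ± 0.0948 in WT AM and 1.64 ± 0.149 in Bmal1-/- AM (n = 17), and 0.794 ± 0.0769 and 1.94 ± 0.367 at 37 °C (n = 24).

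Col5a3, another collagen V chain, passed the test over the temperatures. At 37 °C it ran from 11.1 to 19.5 FPKM in WT, median 14.4, and from 22.9 to 48.8 in Bmal1-/-, median 40.6. The groups did not overlap there. Its difference was 1.52 (SE 0.03, adjusted p = 7.02e-88) over the temperatures and 0.65 (SE 0.03, adjusted p = 1.21e-27) in AM and PM, where it was not called. Col11a1, a chain of collagen XI, which forms thin fibrils with collagen V chains, went the other way in AM and PM. It ran from 20.9 to 35.5 FPKM in WT AM, median 28.4, and from 6.02 to 13.5 in Bmal1-/- AM, median 8.80. That fall of 1.34 (-1.34, SE 0.05, adjusted p = 1.42e-33) had no counterpart at the temperatures, where Col11a1 differed by 0.17 on average, from 0.83 at 27 °C, -0.04 at 32 °C and -0.29 at 37 °C, and Bmal1-/- was the higher at 37 of 71 time points. Col11a2 differed by 0.95 and Col27a1 by -0.23 in AM and PM, and neither passed. Col24a1 was not tested. Its median was 1.34 FPKM in WT AM and 0.0364 in Bmal1-/- AM, with a single Bmal1-/- library at 1.10 (CT42).

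Fibril-associated chains held the largest differences among the fibrillar group. Col12a1 (chr9:79598991-79718831), which bridges fibrils to other matrix, ran from 96.5 to 158 FPKM in WT PM, median 132.5, and from 5.17 to 8.96 in Bmal1-/- PM, median 6.57. No Bmal1-/- library reached the WT range in any course pair, and Bmal1-/- was lower at 34 of 34 and 71 of 71 time points. Its difference was -3.56 (SE 0.05, adjusted p = 6.33e-56) in AM and PM and -2.23 (SE 0.03, adjusted p = 4.18e-104) over the temperatures. Col14a1, a related chain that binds fibril surfaces, ran from 11.8 to 26.3 FPKM in WT AM, median 20.5, and from 2.03 to 7.25 in Bmal1-/- AM, median 4.66. It was lower by 2.09 (-2.09, SE 0.07, adjusted p = 1.17e-34) in AM and PM, but over the temperatures its value of -0.33 was not called and Bmal1-/- was higher at 21 of 71 time points. Col16a1 differed by -0.99 in AM and PM and -0.72 over the temperatures, both under the limit.

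Col20a1 (chr2:180986535-181018363), another fibril-associated chain, was the one of its class called higher without Bmal1. It ran from 0.465 to 2.71 FPKM in WT PM, median 0.898, and from 11.9 to 23.7 in Bmal1-/- PM, median 17.1. In WT AM it had a median of 0.191 with 1 library at 3.06 FPKM, CT36, the shallowest in the series, and in Bmal1-/- AM it ran from 3.46 to 7.95. The groups did not overlap in AM or PM. Its difference was 2.69 (SE 0.08, adjusted p = 1.67e-37) in AM and PM and 1.65 (SE 0.04, adjusted p = 6.56e-75) over the temperatures. Col9a3, whose exons overlap those of Tcfl5 on the opposite strand over 234 bases (6.1%), differed by 0.46 in AM and PM. Whether the authors' counting used strand is not given, so Col9a3 is uncertain.

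Basement membrane chains come as neighbouring gene pairs, and the pairs behaved differently. Col4a1 and Col4a2 are read in opposite directions on chromosome 8 from start sites 21 bases apart, and Col4a6 and Col4a5 on chromosome X from start sites 1343 bases apart. The stretch between and beside the first pair, and the 250 bases before each start of the second pair, are printed. The members of a pair are neighbours, yet their levels differed. The stretches of Col4a6 and Col4a5 are separate and do not overlap. They are RefSeq sequence of GRCm38.p6, 5′ to 3′. In the first, chr8:11312797-11312834 on the plus strand, capitals mark the 22 bases that lie downstream of both start sites. In the other sequences, chrX:141474077-141474326 on the minus strand and chrX:141475169-141475418 on the plus strand, capitals mark the GC box GGGCGG or its reverse complement CCGCCC.
Col4a1-Col4a2: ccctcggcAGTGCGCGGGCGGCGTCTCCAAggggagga
Col4a6: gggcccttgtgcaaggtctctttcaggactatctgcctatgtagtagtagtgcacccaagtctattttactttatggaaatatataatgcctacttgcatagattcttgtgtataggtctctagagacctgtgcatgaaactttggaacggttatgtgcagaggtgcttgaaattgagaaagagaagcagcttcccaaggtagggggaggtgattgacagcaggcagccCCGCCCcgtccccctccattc
Col4a5: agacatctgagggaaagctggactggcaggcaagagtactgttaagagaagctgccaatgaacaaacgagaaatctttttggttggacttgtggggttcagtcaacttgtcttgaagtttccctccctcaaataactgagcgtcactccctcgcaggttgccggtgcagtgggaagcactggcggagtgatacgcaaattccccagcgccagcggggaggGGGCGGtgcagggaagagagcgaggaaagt

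Promoter windows of 250 bases before to 50 after a start were available for 25 of the 30 members, as 27 windows. Col14a1, Col12a1, Col5a2, Col1a1 and Col9a3 had none. The GC box GGGCGG, on either strand, was in 19 of the 27 windows (70.4%) and in 35.7% of all 32851 windows. The E-box CACGTG, which reads the same on both strands, was in 0 of the 27 (7.2% of all windows). CCAAT was in 9 (33.3%, against 37.4%), and TATAAA in those of Col11a2 and Col3a1 (7.4%, against 13.6%), both on either strand. These are letter matches in fixed windows, not binding sites.

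Col4a6 (chrX:141165403-141474076) was higher without Bmal1 at every one of 34 and 71 time points. It ran from 2.06 to 4.14 FPKM in WT AM, median 2.61, and from 13.9 to 18.5 in Bmal1-/- AM, median 15.8. In Bmal1-/- it was above the WT range in each of the 5 course pairs, with differences of 2.101 (SE 0.03, adjusted p = 5.16e-56) in AM and PM and 1.98 (SE 0.02, adjusted p = 3.02e-125) over the temperatures. Its neighbour Col4a5 was higher at the same number of time points but by less, 0.42 (SE 0.02, adjusted p = 8.65e-30) and 0.73 (SE 0.02, adjusted p = 1.03e-69), under the limit. The Col4a6 to Col4a5 ratio was 0.0636 ± 0.00948 in WT AM and 0.239 ± 0.0184 in Bmal1-/- AM (n = 17). Collagen IV of the α5 and α6 chains is a minor network, and that of α1 and α2 the ubiquitous one.

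Col4a1 and Col4a2 were not called in the genotype comparison, and their AM and PM values differed. Col4a1 ran from 187 to 309 FPKM in WT AM, median 259, and from 303 to 479 in Bmal1-/- AM, median 441. In PM it ran from 216 to 348 in WT, median 276.5, and from 170 to 349 in Bmal1-/-, median 303. The Col4a1 difference was 0.40 (SE 0.04, adjusted p = 2.97e-14) over AM and PM, made of 0.76 in AM and 0.05 in PM, and -0.40 (SE 0.02, adjusted p = 2.33e-33) over the temperatures. Col4a2 differed by -0.13 (SE 0.03, adjusted p = 3.77e-05) over AM and PM and by -0.69 (SE 0.02, adjusted p = 1.93e-60) over the temperatures. The first value is made of 0.23 in AM and -0.50 in PM, opposite in sign. Bmal1-/- was the higher at 17 of those 34 time points. The Col4a1 to Col4a2 ratio was 1.65 ± 0.177 in WT AM and 2.37 ± 0.179 in Bmal1-/- AM (n = 17).

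Collagen VI needs its α1, α2 and α3 (or a related long) chains together, and here α1 and α2 went one way and α3 the other. Col6a2 ran from 361 to 487 FPKM in WT AM, median 399, and from 776 to 1005 in Bmal1-/- AM, median 896. Col6a1 ran from 612 to 757 in WT AM, median 667, and from 1109 to 1251 in Bmal1-/- AM, median 1167. Both were above the WT range in all 5 course pairs. Col6a2 rose by 1.07 (SE 0.02, adjusted p = 2.46e-46) in AM and PM and by 1.34 (SE 0.02, adjusted p = 1.57e-107) over the temperatures, while Col6a1 differed by 0.71 (SE 0.02, adjusted p = 2.84e-42) and 0.97 (SE 0.01, adjusted p = 3.98e-95), both under the limit. With library totals set equal without Gm26377, the Col6a2 difference in AM and PM was 0.85 and no longer called.

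Col6a3 (chr1:90765923-90843971), the long α3 chain, ran from 111 to 207 FPKM in WT at 37 °C, median 150.2, and from 27.1 to 88.1 in Bmal1-/-, median 65.7. At 27 °C it ran from 24.9 to 49.0 in WT, median 31.0, and from 3.14 to 9.12 in Bmal1-/-, median 5.88. Bmal1-/- was lower at 71 of 71 time points, by 1.87 (-1.87, SE 0.04, adjusted p = 2.9e-79), and at 33 of 34 in AM and PM, where the difference of -0.75 (SE 0.03, adjusted p = 2.44e-28) was not called. The Col6a3 to Col6a1 ratio was 0.251 ± 0.0296 in WT and 0.0624 ± 0.0138 in Bmal1-/- at 37 °C (n = 24), and 0.0969 and 0.00790 at 27 °C. Col6a5, an alternative to α3, was not tested, with medians of 0.562 FPKM in WT AM and 0.0606 in Bmal1-/- AM.

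**Figure D2:**
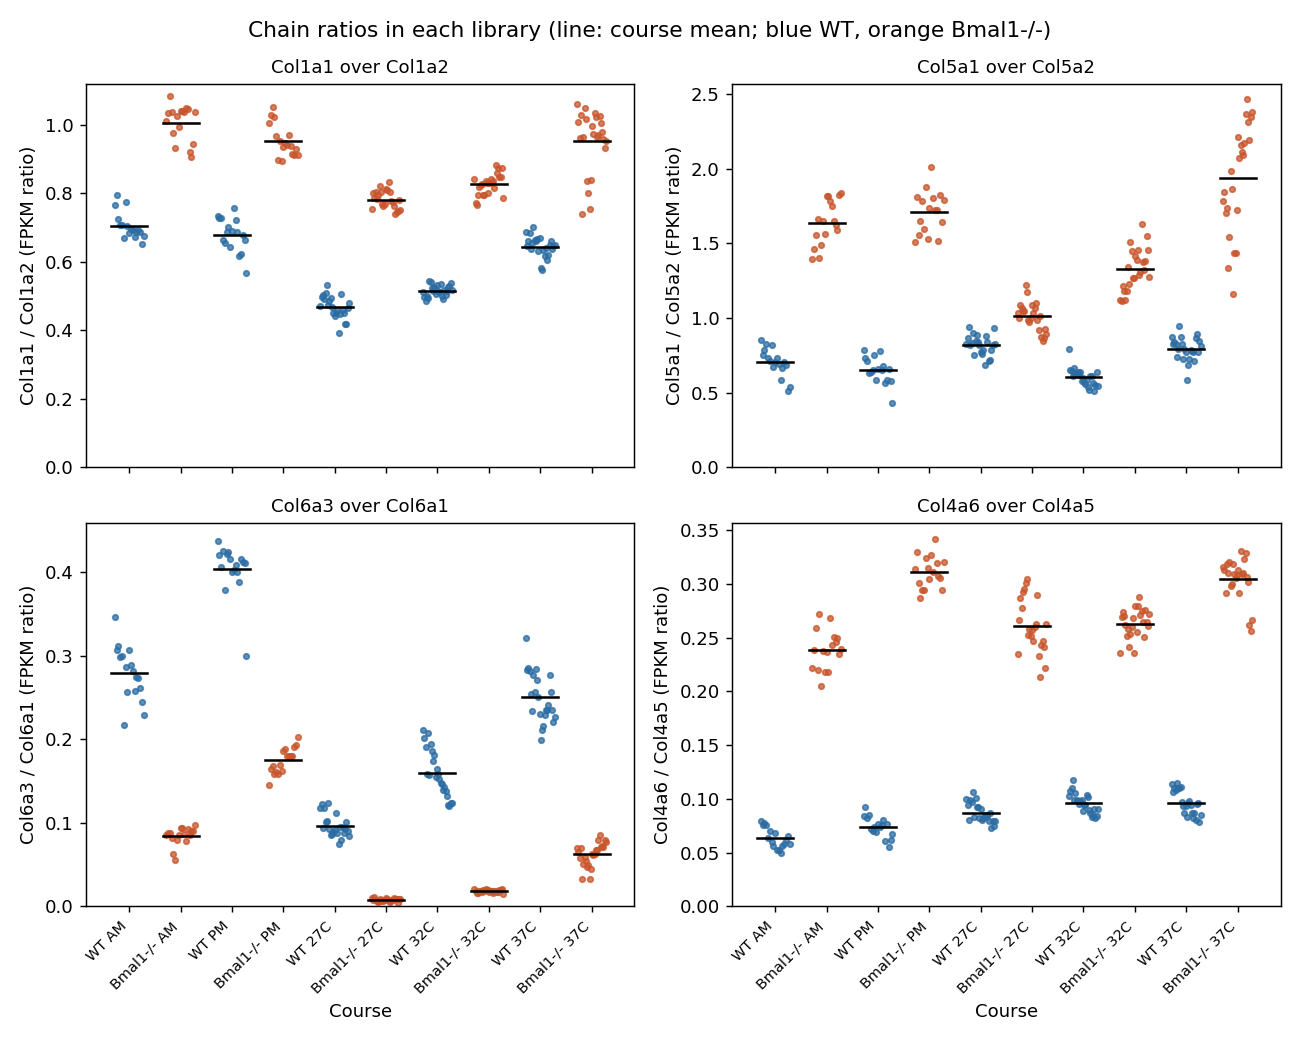
FPKM ratios of 2 chains of the same collagen in each library (points) with course means (lines), WT in blue and Bmal1-/- in orange, for Col1a1/Col1a2, Col5a1/Col5a2, Col6a3/Col6a1 and Col4a6/Col4a5. Bmal1-/- means lie above WT for Col1a1/Col1a2, Col5a1/Col5a2 and Col4a6/Col4a5 and below WT for Col6a3/Col6a1 in all 5 course pairs.

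Among the remaining classes Col8a1, Col23a1 and Col7a1 were lower without Bmal1. Col8a1 (chr16:57624258-57754737), a short-chain collagen of hexagonal networks, ran from 25.3 to 40.8 FPKM in WT AM, median 30.1, and from 0.508 to 1.28 in Bmal1-/- AM, median 0.733. At 37 °C it ran from 15.1 to 22.7 in WT, median 17.6, and from 0.279 to 1.36 in Bmal1-/-, median 0.594. No libraries overlapped in any course pair, and the differences were -3.97 (SE 0.03, adjusted p = 2.62e-65) in AM and PM and -3.88 (SE 0.02, adjusted p = 4.59e-145) over the temperatures. Col8a2, its partner chain, was under the test's minimum, at a median of 0.187 FPKM in WT AM and 0.855 in Bmal1-/- AM.

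Col23a1 (chr11:51289920-51583918), a transmembrane collagen, ran from 12.6 to 34.03 FPKM in WT AM, median 22.5, and from 0.273 to 0.827 in Bmal1-/- AM, median 0.475. It was lower by 3.93 (-3.93, SE 0.04, adjusted p = 1.25e-61) in AM and PM and by 2.62 (-2.62, SE 0.03, adjusted p = 1.29e-107) over the temperatures, with no overlap in any course pair. Col7a1, the anchoring fibril chain, ran from 19.6 to 35.6 FPKM in WT PM, median 24.4, and from 3.996 to 8.47 in Bmal1-/- PM, median 6.02. It was lower by 1.47 (-1.47, SE 0.05, adjusted p = 5.48e-33) and 1.16 (-1.16, SE 0.05, adjusted p = 6.61e-48). The AM ranges overlapped, 4.29 to 19.4 in WT against 3.49 to 6.999.

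Col15a1 and Col18a1, the multiplexins of the basement membrane zone, were higher. Col15a1 (chr4:47208161-47313167) ran from 9.08 to 51.1 FPKM in WT PM, median 27.5, and from 63.7 to 132 in Bmal1-/- PM, median 101.2. The PM groups did not overlap, while in AM they did. Its difference was 1.49 (SE 0.08, adjusted p = 6.84e-24) in AM and PM and 1.38 (SE 0.06, adjusted p = 2.79e-44) over the temperatures. Col18a1, the source of endostatin, differed by 0.47 and 0.69 and was not called. Col28a1 was not tested, at medians of 0.0778 FPKM in WT AM and 1.21 in Bmal1-/- AM.

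**Figure D3:**
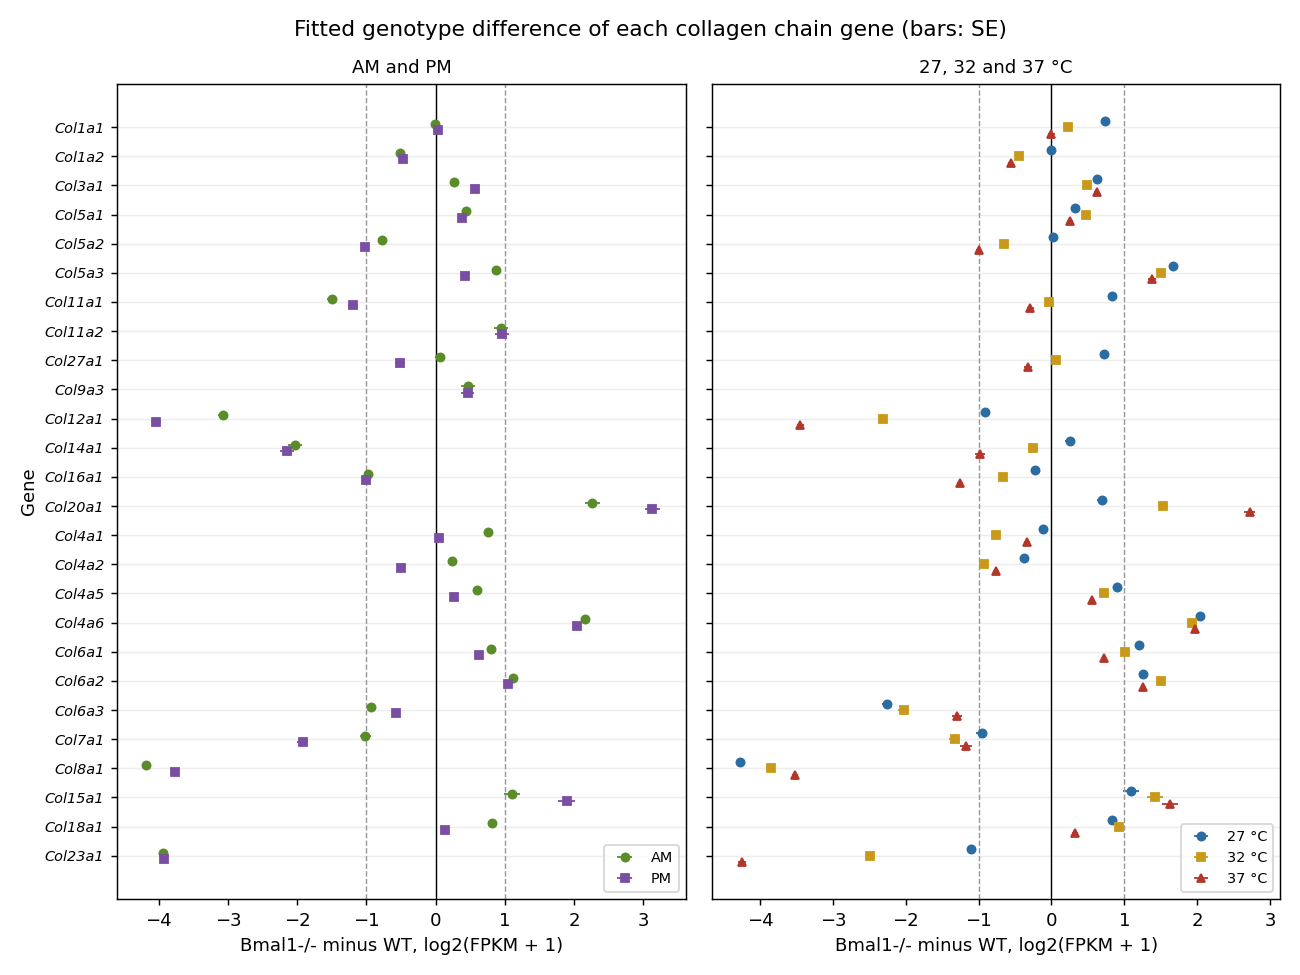
Fitted Bmal1-/- minus WT difference (log2(FPKM + 1), x axis) of each tested member (y axis), by course pair, with bars for the SE and dashed lines at a 2-fold difference. Col8a1, Col12a1 and Col23a1 lie farthest to the left and Col4a6 and Col20a1 farthest to the right, and the values of Col12a1, Col23a1 and Col20a1 spread widely between temperatures.

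Genes that serve collagen were read beside the chains, against the shares of all genes called, 7.01% higher and 7.53% lower in AM and PM and 5.92% and 7.01% over the temperatures. With lists this short, 1 or 2 called genes are near those shares. Of 19 tested genes for making and secreting collagen, 1 was called in AM and PM (P3h4, a scaffold of the hydroxylation complex, 1.68, SE 0.03) and 3 over the temperatures, all higher, with P3h4 at 1.58, the lysyl hydroxylase Plod2 at 1.11 and the transcription factor Creb3l1 at 1.05. Of 9 tested processing and crosslinking genes, 2 were called in each set, all higher. They were the crosslinking enzyme Loxl2, at 1.88 and 2.45, with the C-proteinase Bmp1 at 1.01 in AM and PM and the N-proteinase Adamts2 at 1.29 over the temperatures. Of 7 tested receptors and uptake genes, 2 were called in each set, both lower, the collagen-binding integrins Itga11 at -3.00 and -1.97 and Itga1 at -1.499 and -1.74. In the TGF-beta pathway, a known inducer of collagen genes, 3 of 15 were called in AM and PM, all lower, among them Ltbp2 (-1.62) and Ltbp1 (-1.23), and 5 over the temperatures, 4 lower with Ccn2 at -2.16 and Ltbp2 at -2.07, and Tgfb1 higher at 1.32.

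Markers of the fibroblasts and of other cell types differed between genotypes. Of 8 fibroblast markers, 2 were called higher and 3 lower in AM and PM, and 1 higher and 4 lower over the temperatures, with medians of -0.81 and -1.15. Their summed level had a median of 3895 FPKM in WT AM (3691 to 4330) and 5536 in Bmal1-/- AM (5083 to 6083). The sum was thus higher while the median difference of the markers was negative, so the sum does not stand for each marker. Endothelial markers summed to a median of 4.99 in WT AM (3.32 to 6.28) and 1.54 in Bmal1-/- AM (1.15 to 2.87), with Tie1 at 0 in both, and macrophage markers to 5.62 (4.09 to 7.16) and 2.57 (1.58 to 3.64). Adipocyte markers (5 in the list) summed to a median of 58.5 FPKM in WT AM (45.04 to 72.7) and 204.6 in Bmal1-/- AM (137 to 257.5), with means of at least 1 FPKM for 3 and 4 of the genes. Melanocyte and Schwann cell markers summed to a median of 10.0 in WT AM (6.99 to 14.4) and 1.92 in Bmal1-/- AM (1.495 to 2.705), with 1 of 5 genes at 1 FPKM or more and Sox10 at 0 in every library of both. Their part in the collagen differences was not tested.

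The temperature comparison sets cultures at 27 or 32 °C beside those at 37 °C, within each genotype. At 27 °C most collagen chains were lower in both genotypes, with Col15a1, Col6a3, Col5a3, Col27a1, Col18a1 and Col4a1 called in each, and Col12a1 rose in Bmal1-/- cells. In WT, 10 of 24 members were called at 27 °C, all lower, against 5.21% of all genes called lower and 8.38% called higher. In Bmal1-/-, 7 were called lower, against 4.04%, and 1 higher, against 7.64%. The members' median was -0.85 in WT and -0.55 in Bmal1-/-, while that of all genes tested was 0.21 in each. Under median-of-ratios scaling the all-gene median moved to -0.01 in WT and -0.02 in Bmal1-/-, the share of higher calls among all called genes went from 61.7% to 35.9% and from 65.4% to 38.9%, and 15 and 9 members were called. Of the 13045 genes tested with that scaling, 1043 were called lower and 584 higher in WT, and 841 and 535 in Bmal1-/-.

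Col1a1 at 27 °C ran from 534 to 837 FPKM in WT, median 688, and at 37 °C from 1342 to 2010, median 1707. The WT difference was -1.31 (SE 0.05, adjusted p = 9.89e-53), with 0 of 23 time points higher at 27 °C. In Bmal1-/- Col1a1 ran from 990 to 1330 FPKM at 27 °C, median 1121, and differed by -0.57 (SE 0.05, adjusted p = 1.04e-21), not called. Col1a2 differed by -0.85 (SE 0.03, adjusted p = 5.47e-55) in WT and -0.29 (SE 0.03, adjusted p = 8.94e-17) in Bmal1-/-. Col3a1 differed by -0.85 (SE 0.03, adjusted p = 7.6e-58) and -0.84 (SE 0.03, adjusted p = 5.43e-57), below 37 °C at every time point in both genotypes yet under the limit. With median-of-ratios scaling, Col3a1 was called lower in both genotypes and Col1a2 in WT.

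Collagen V chains separated again. Col5a3 ran from 1.10 to 3.77 FPKM in WT at 27 °C, median 2.21, and from 6.73 to 11.1 in Bmal1-/-, median 9.59. It was lower than at 37 °C by 2.26 (-2.26, SE 0.05, adjusted p = 1.91e-79) and 1.97 (-1.97, SE 0.05, adjusted p = 7.74e-73). Col5a1 differed by -0.60 (SE 0.05, adjusted p = 5.25e-25) and -0.54 (SE 0.05, adjusted p = 8.07e-22), and Col5a2 by -0.65 (SE 0.03, adjusted p = 8.84e-39) and 0.37 (SE 0.03, adjusted p = 7.35e-20), none of them called. Col27a1 was lower by 2.14 (-2.14, SE 0.05, adjusted p = 5.15e-71) in WT and 1.09 (-1.09, SE 0.05, adjusted p = 4.94e-41) in Bmal1-/-.

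The multiplexins were both called lower at 27 °C in both genotypes. Col15a1 ran from 0.0568 to 1.05 FPKM in WT at 27 °C, median 0.322, and from 5.59 to 22.9 at 37 °C, median 12.7. In Bmal1-/- it ran from 0.231 to 5.81 at 27 °C, median 1.60, and from 26.5 to 57.8 at 37 °C, median 41.5. At 27 °C the WT median was under the pseudocount, which limits the fitted size. No library at 27 °C reached the 37 °C range of its genotype, and the differences were -3.34 (SE 0.11, adjusted p = 1.68e-58) and -3.88 (SE 0.11, adjusted p = 2.74e-65). Col18a1 was lower by 1.84 (-1.84, SE 0.04, adjusted p = 1.06e-72) and 1.32 (-1.32, SE 0.04, adjusted p = 2.93e-57).

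Col6a3 was called lower at 27 °C, and its partners were not. It was lower at 27 °C by 2.19 (-2.19, SE 0.07, adjusted p = 5.23e-60) in WT and 3.15 (-3.15, SE 0.07, adjusted p = 4.78e-77) in Bmal1-/-. Col6a1 differed by -0.85 (SE 0.03, adjusted p = 4.37e-61) and -0.37 (SE 0.03, adjusted p = 2.42e-27), and Col6a2 by -0.56 (SE 0.03, adjusted p = 2.02e-39) and -0.55 (SE 0.03, adjusted p = 5.58e-39), all under the limit. With median-of-ratios scaling Col6a1 in WT was at -1.12 and was called. Col4a1 was lower by 1.37 (-1.37, SE 0.04, adjusted p = 2.73e-61) and 1.14 (-1.14, SE 0.04, adjusted p = 7.44e-53), and Col4a2 by 1.02 (-1.02, SE 0.04, adjusted p = 6.45e-53) in WT, with -0.65 (SE 0.04, adjusted p = 5.97e-34) in Bmal1-/-. Col4a5 and Col4a6, the other pair, were not called, with -0.75 and -0.67 in WT and -0.42 and -0.60 in Bmal1-/-.

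Col12a1 was the member called higher in the cold, and in Bmal1-/- cells. There it ran from 18.3 to 26.3 FPKM at 27 °C, median 21.1, and from 1.82 to 7.42 at 37 °C, median 4.20, with no overlap and a difference of 2.08 (SE 0.05, adjusted p = 1.64e-72). In WT it ran from 33.9 to 61.9 at 27 °C, median 39.2, and from 49.8 to 68.8 at 37 °C, median 53.8, a difference of -0.47 that was not called. Col20a1 in Bmal1-/- went from a median of 8.18 FPKM at 37 °C to 0.714 at 27 °C, a fall of 2.25 (-2.25, SE 0.07, adjusted p = 6.65e-63). Col23a1 in WT went from a median of 24.8 FPKM at 37 °C to 1.498 at 27 °C, a fall of 3.39 (-3.39, SE 0.05, adjusted p = 7.1e-92). At a pseudocount of 0.1 FPKM the WT values were -4.01 for Col23a1 and -5.01 for Col15a1. Col14a1 in WT fell by 1.64 (-1.64, SE 0.07, adjusted p = 9.43e-45). Col8a1, in contrast, was 0.81 higher in WT at 27 °C and Col7a1 0.42 higher, both under the limit. In Bmal1-/- Col7a1 (0.63), Col11a1 (0.51), Col5a2 (0.37), Col16a1 (0.26) and Col8a1 (0.05) were also fitted higher at 27 °C, all under the limit.

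**Figure D4:**
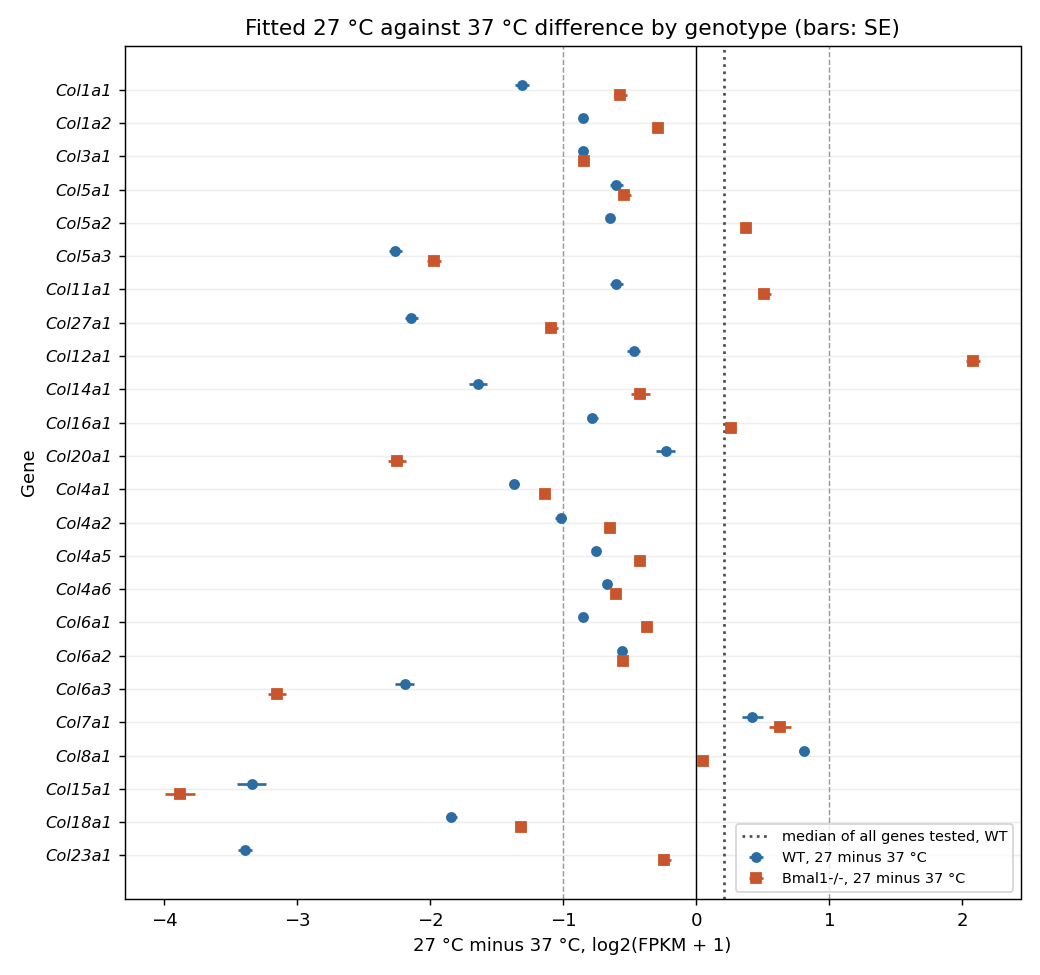
Fitted 27 °C minus 37 °C difference (log2(FPKM + 1), x axis) of the 24 tested members (y axis) in WT (circles) and Bmal1-/- (squares), with SE bars, dashed lines at 2-fold and a dotted line at the WT median of all genes (0.21). Most points lie left of 0, and the genotypes are far apart for Col23a1, Col12a1 and Col20a1.

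The 32 °C cultures lay between for most of these chains. In WT 3 of 24 members were called, all lower, against 1.37% of all genes called lower and 1.93% higher. They were Col15a1 (-3.01, SE 0.11, adjusted p = 1.62e-53), Col23a1 (-1.79, SE 0.05, adjusted p = 7.54e-61) and Col27a1 (-1.01, SE 0.05, adjusted p = 6.03e-38). With median-of-ratios scaling 5 were called, and 6 with equal totals without Gm26377, adding Col5a3 and Col6a3 in both and Col14a1 in the second. Among all genes in WT, 253 of 13045 were called lower and 188 higher in the first. In the second, 289 of 13014 were called lower and 160 higher. In Bmal1-/- 4 were called lower, against 0.944%, namely Col15a1 (-3.22, SE 0.11, adjusted p = 2.37e-56), Col6a3 (-1.70, SE 0.07, adjusted p = 1.71e-48), Col20a1 (-1.48, SE 0.07, adjusted p = 5.47e-44) and Col4a1 (-1.04, SE 0.04, adjusted p = 1.16e-48). Col12a1 was called higher (1.46, SE 0.05, adjusted p = 1.01e-55), against 1.77%. Among all genes the share of higher calls went from 58.5% to 42.6% in WT and from 65.2% to 49.5% in Bmal1-/- with median-of-ratios scaling, and to 35.6% and 34.5% with equal totals.

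Whether the temperature response differed by genotype was tested as the Bmal1-/- response minus the WT response. For 27 against 37 °C, 7 of 24 members were called higher, against 2.74% of all genes, and 1 lower, against 1.67%. The higher ones were Col23a1 (3.15, SE 0.08), Col12a1 (2.55, SE 0.07), Col14a1 (1.23, SE 0.10), Col11a1 (1.12, SE 0.07), Col16a1 (1.04, SE 0.06), Col27a1 (1.04, SE 0.07) and Col5a2 (1.02, SE 0.05), and the lower one Col20a1 (-2.03, SE 0.09). The genotype difference of Col12a1 went from -0.91 at 27 °C to -2.31 at 32 °C and -3.45 at 37 °C, and that of Col20a1 from 0.69 to 1.53 and 2.72. Col23a1 in Bmal1-/- had medians of 0.118, 0.302 and 0.340 FPKM at the 3 temperatures, all under 1 FPKM, so its response there is bounded by the pseudocount. For 32 against 37 °C, Col23a1 (1.76) and Col12a1 (1.14) were called higher, against 0.798%, and Col20a1 (-1.19) lower, against 0.691%. At a pseudocount of 0.1 FPKM, Col20a1 was at -0.56 in that comparison and was not called.

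The lists of genes that serve collagen were read against the all-gene shares of 5.21% lower and 8.38% higher in WT and 4.04% and 7.64% in Bmal1-/- at 27 °C, and 1 called gene in a list is near them. Of 19 tested, 6 were called at 27 °C, all lower, including the prolyl hydroxylase subunits P4ha2 (-2.04, SE 0.04) and P4ha1 (-1.35, SE 0.02) and Plod2 (-1.47, SE 0.04), with a list median of -0.68. In Bmal1-/- 2 were called lower, P4ha2 (-1.06) and Plod2 (-1.07), with a median of -0.56. The collagen chaperone Serpinh1, a heat shock protein, was called lower at 32 °C in both genotypes (-1.31 and -1.01, SE 0.02 each). Among 9 processing genes 1 was called lower in each genotype at 27 °C, Adamts2 in WT (-1.75) and Loxl1 in Bmal1-/- (-1.26). Of 7 receptors and uptake genes 4 were called lower in WT, with Itga11 at -2.00, Mrc2 at -1.41 and Ddr2 at -1.29, and 0 in Bmal1-/-, where all 7 had an adjusted p under 0.05 in limma. Of 15 TGF-beta pathway genes, 2 were called higher in WT at 27 °C, Ccn2 (1.92) and Smad2 (1.05), and 1 lower, and Tgfb3 (-1.03) lower in Bmal1-/-.

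Markers of the fibroblasts and of other cells differed between temperatures as well. Of 8 fibroblast markers, 3 were called lower at 27 °C in WT and 4 in Bmal1-/-, with medians of -0.89 and -0.79. Adipocyte markers summed to a median of 30.6 FPKM at 27 °C (21.8 to 39.2) and 95.1 at 37 °C (65.6 to 112.3) in WT, and to 47.8 (34.3 to 60.4) and 190.3 (146 to 228) in Bmal1-/-. Macrophage markers summed to a median of 32.5 FPKM in WT at 27 °C (24.9 to 41.4) and 7.65 at 37 °C (6.43 to 10.0), and to 25.8 (17.99 to 41.5) and 2.06 (1.17 to 3.07) in Bmal1-/-, with 1 or 2 of 5 genes at a mean of 1 FPKM or more. In WT the sum was carried by Cd68, with medians of 30.4 FPKM at 27 °C and 2.37 at 37 °C, while Lyz2 went from 1.51 to 5.10 the other way. Ptprc, the pan-leukocyte marker, was at 0 in every Bmal1-/- library at 37 °C and Adgre1 in every Bmal1-/- library at 27 °C. Pericyte and smooth muscle markers summed to a median of 222 FPKM at 27 °C (156 to 375) and 132.5 at 37 °C (102 to 178) in WT, and to 326 (244 to 484) and 120.0 (69.1 to 171.5) in Bmal1-/-. Their part in the temperature differences was not tested.

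Between the PM and AM courses of 1 genotype few chains passed the 2-fold limit, and others differed under it in both directions. Col6a3 was fitted higher in PM by 0.61 in WT and 0.95 in Bmal1-/-, at 17 of 17 time points in each. Col4a2 was fitted at -0.75 in Bmal1-/-, where it was higher in PM at 0 of 17, and at -0.01 in WT. In WT, 2 of 26 members were called, both higher in PM, against 1.61% of all genes called higher and 0.774% lower. Col27a1, a minor fibril-forming chain, ran from 1.77 to 7.48 FPKM in AM, median 3.48, and from 8.495 to 19.9 in PM, median 12.2, with a difference of 1.57 (SE 0.07, adjusted p = 4.5e-27). Col7a1 had medians of 12.04 in AM and 24.4 in PM and a difference of 1.11 (SE 0.08, adjusted p = 2.49e-19), higher at 17 of 17 time points. In Bmal1-/-, Col20a1 was called higher in PM (1.51, SE 0.11, adjusted p = 1.88e-17), against 0.519% of all genes called higher and 0.646% lower. At a pseudocount of 0.1 FPKM, 5 members were called in WT and 4 in Bmal1-/-, with the low chains Col11a2 and Col9a3 added in both. In Bmal1-/- Col27a1 was fitted at 0.98 in the main fit and at 1.14 with that pseudocount. Its medians there were 3.82 FPKM in AM and 8.83 in PM, and it was higher in PM at 17 of 17 time points. For genotype in AM and PM, another comparison, that pseudocount raised calls among all genes from 14.5% to 18.4%. The all-gene share for PM against AM at that pseudocount is not given, so the larger counts are not read as a result about collagens.

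Over the hours of the courses some chains drifted, and in AM and PM the slopes differed between genotypes. Col1a1 in WT AM stood at 2767 FPKM at CT0 and 2073 at CT48, while in Bmal1-/- AM it went from 1992 to 2850. Col3a1 went from 7504 to 6582 in WT AM and from 7585 to 10889 in Bmal1-/- AM. Col6a3 went from 240.6 to 147 in WT AM and from 94.9 to 116 in Bmal1-/- AM. A trend is the fitted linear change over 48 h, and was called where the adjusted p was below 0.05 and the change 1.5-fold or more. In WT AM and PM, 3 of 26 members fell, against 1.68% of all genes (1.11% rose), namely Col15a1 by 1.26 (-1.26, SE 0.21), Col23a1 by 1.02 (-1.02, SE 0.10) and Col27a1 by 0.83 (-0.83, SE 0.12). In Bmal1-/- AM and PM limma called 0 of 26, with 7 at an adjusted p under 0.05 and 11 at an unadjusted p under 0.05, against 0.413% of all genes rising and 0.503% falling.

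The difference between the slopes of the genotypes was tested after the trends had been seen. It was positive and called for 10 of 26 members, where 1.79% of all genes were called positive and 1.10% negative. The 10 include Col1a1 (0.72, SE 0.12, from -0.36 in WT and 0.36 in Bmal1-/-), Col1a2 (0.61, SE 0.08, from -0.18 and 0.43), Col3a1 (0.71, SE 0.10, from -0.33 and 0.38), Col5a1 (0.71, SE 0.11) and Col6a3 (0.72, SE 0.12, from -0.36 and 0.36). The fitted slopes of these chains were negative in WT and positive in Bmal1-/-, and none of them reached 1.5-fold alone. The library of WT PM at CT48 stood low, with Col1a1 at 1534 FPKM against 2198 at CT45. Without it, a choice made after seeing the data, Col1a2 and Col11a1 were no longer called.

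Averaged over the 3 temperatures, the Col12a1 slope was called positive and the Col15a1 slope negative in both genotypes, but single courses varied. In WT Col12a1 changed by 0.75 (SE 0.08, adjusted p = 1.31e-15), against 0.998% of all genes rising, and Col15a1 by -0.83 (SE 0.17, adjusted p = 1.49e-05), against 2.20% falling. In Bmal1-/- the values were 0.59 (SE 0.08, adjusted p = 1.31e-10), against 0.384%, and -0.93 (SE 0.17, adjusted p = 2.65e-06), against 0.514%. By course, Col12a1 changed by 0.31, 1.59 and 0.36 at 27, 32 and 37 °C in WT (SE 0.14, 0.13 and 0.13) and by 0.07, 0.67 and 1.05 in Bmal1-/- (the same SEs). Col15a1 changed by -0.34, -0.59 and -1.55 in WT and by -1.75, -0.83 and -0.19 in Bmal1-/- (SE 0.30, 0.29 and 0.29). The slope difference was called for Col6a3 (0.78, SE 0.15) and Col20a1 (0.59, SE 0.14), both positive, against 1.57% positive and 1.04% negative in all genes. In Bmal1-/- at 37 °C the libraries at CT8 and from CT16 to CT22 had low Col1a1, between 927 and 1287 FPKM. Every other library of that course was at 1413 or more. The dip was not shared by all fibril-forming chains, as Col5a2 had its highest value of the course at CT16 (116.9 FPKM). With both CT14 libraries at 27 °C kept, Col6a3 was no longer called in the slope difference, nor Col12a1 in the Bmal1-/- trend. Without the 5 low libraries, a choice made after seeing the data, Col12a1 was no longer called in Bmal1-/-, Col20a1 no longer in the slope difference, and Col5a2 (0.97) and Col27a1 (0.96) no longer in the 27 °C test between genotypes.

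**Figure D5:**
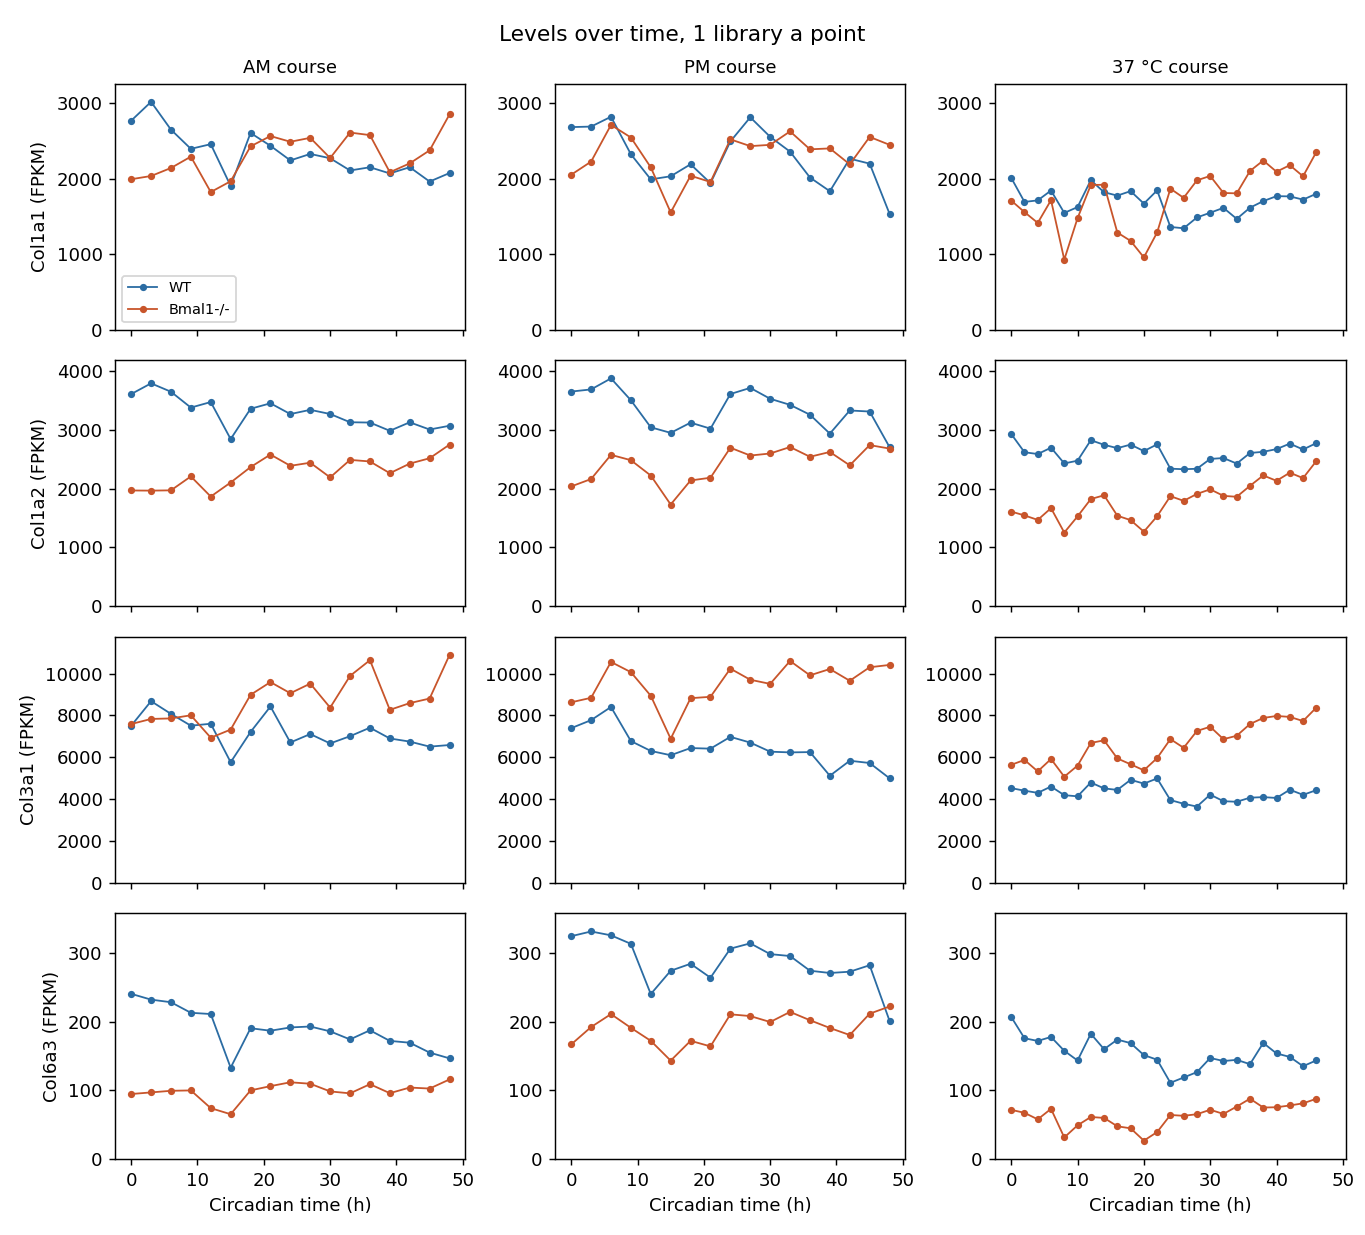
FPKM (y axis) of Col1a1, Col1a2, Col3a1 and Col6a3 (rows) against circadian time in h (x axis) in the AM, PM and 37 °C courses (columns), 1 library a point, WT in blue and Bmal1-/- in orange. In AM, Col1a1 starts higher in WT (2767 against 1992 FPKM) and ends higher in Bmal1-/- (2850 against 2073). At 37 °C Col1a1 dips in the Bmal1-/- libraries at CT8 and CT16 to CT22.

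Daily rhythm was tested as the 24 h cosine and sine of each course, with the moderated F test of limma. In AM and PM, 4 of 26 members passed in WT, where 10.1% of all genes did, and 7 in Bmal1-/-, where 5.97% did. Col4a1, Col4a2 and Col6a1 passed in both genotypes, Col7a1 in WT, and Col1a1, Col1a2, Col6a2 and Col6a3 in Bmal1-/-. In Bmal1-/- PM the library at CT15 had the lowest value of the course for all 7 members that passed in Bmal1-/-. There Col1a1 was at 1552 FPKM (course median 2400) and Col4a1 at 170 (median 303). In Bmal1-/- AM, CT15 was also the lowest for Col4a1 (303 FPKM, median 441), Col4a2 and Col6a3. Whether these calls hold without the CT15 libraries was not tested. Col7a1 did not pass with the shallowest library left out, nor Col1a1 when genes down to a mean of 0.1 FPKM were tested or the intensity trend was dropped. With equal totals without Gm26377, 9 members passed in WT and 11 in Bmal1-/-, where 13.4% and 8.0% of all genes did. Amplitudes, from mid-level to peak on the log2 scale, were small. In PM, Col4a1 had 0.23 ± 0.06 in WT (SE), peaking at CT4.4, and 0.27 ± 0.06 in Bmal1-/-, peaking at CT5.1, and Col4a2 had 0.23 ± 0.05 and 0.25 ± 0.04. In AM the Col4a2 amplitude was 0.05 ± 0.04 in each genotype. Col7a1 in WT AM had 0.29 ± 0.08. Without WT PM at CT48, 12 members passed in WT, Col1a1, Col1a2 and Col5a1 among those added, and 17.1% of all genes did. Whether rhythm differed between genotypes was not tested.

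At the 3 temperatures 2 of 24 members passed in WT, where 5.72% of all genes did, and 8 in Bmal1-/-, where 15.1% did. Col5a3 passed in WT (adjusted p = 0.0101), with 0.24 ± 0.05 at 37 °C, and so did Col3a1 (adjusted p = 0.0292), with 0.12 ± 0.03. In Bmal1-/- the smallest adjusted p-values were those of Col27a1 (1.3e-05), Col20a1 (6.78e-05) and Col4a6 (7.72e-05). Col20a1 had amplitudes of 0.39 ± 0.07 at 37 °C, peaking at CT5.7, and 0.24 ± 0.07 at 32 °C, peaking at CT4.5. With both CT14 libraries at 27 °C kept, 0 members passed in WT and 4 in Bmal1-/-. Those libraries go against their labels, and the all-gene share with them kept is not given. The lower counts are thus not read as a result about the members. Without the 5 Bmal1-/- libraries at 37 °C, 4 passed in WT, although no WT library was left out, and 11% of all genes did. Level, drift, cosine and sine are fitted for each course alone, so the fitted WT amplitudes do not depend on the Bmal1-/- libraries. All courses of this fit share a single estimate of the spread, and the filter and adjustment run over all genes. The WT calls can move through these, and which of them acted was not tested.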

How the data were processed

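RNA of mouse skin fibroblasts was sequenced in 212 poly(A) libraries, and the authors deposited their FPKM values in a single file. TopHat, TopHat2 2.1.0, Cuffdiff and GRCm38 are named in the submitters' processing notes, without their roles. Symbols and coordinates came from the GRCm38 annotation (GENCODE), and 47217 of 47631 gene IDs matched. The 30 members, the gene lists and the comparisons were chosen with earlier results of these data known.

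From the FPKM, limma 3.58.1 (R 4.3.3) was fitted with an intensity trend to log2(FPKM + 1), keeping genes whose mean FPKM over the fit reached 1. One fit held the 68 AM and PM libraries (13307 genes), and another the 142 temperature libraries (13031 genes) without both CT14 libraries at 27 °C. Level, linear drift and a 24 h cosine and sine were separate for every course, with Benjamini-Hochberg adjustment over all genes tested. The scripts were tested on simulated data. Python 3.11.15, pandas 2.3.3, numpy 2.4.6 and matplotlib 3.10.9 made the summaries and figures.

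Every member is named with its level. Full statistics go to called members, up to 5 in each direction, and to the chains of collagens I, III, IV, V and VI in the genotype and 27 °C comparisons. Of each pathway list, up to 3 called members with the largest difference are named. 1 gene of these lists is not reported here. Depth is an estimate, with a median of 23.46 M reads, from 1357 genes of at least 1500 bases whose values came out whole within 0.15 read in 94.1% of cases, and its search was tuned on these values. For the shallowest library an earlier estimate was much lower. FPKM carry no count error. Tests of slope differences were added after seeing the data. Alternatives changed the pseudocount, the filter on low values, the scaling, the fold limit, the time terms and the libraries used.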

Additional observations from a re-analysis of the deposited data

Results flagged for a closer look

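These values were set apart because the genotypes differed in the test of the difference itself, by limma with adjustment over all genes. None is explained here.

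In the response to 27 against 37 °C, Bmal1-/- minus WT, the value was 3.15 for Col23a1 (SE 0.08, adjusted p = 2.6e-70) and 2.55 for Col12a1 (SE 0.07, adjusted p = 1.47e-64). It was 1.23 for Col14a1 (SE 0.10, adjusted p = 2.5e-21), 1.12 for Col11a1 (SE 0.07, adjusted p = 5.91e-30) and 1.04 for Col16a1 (SE 0.06, adjusted p = 7.82e-34). Col27a1 had 1.04 (SE 0.07, adjusted p = 5.3e-26), Col5a2 had 1.02 (SE 0.05, adjusted p = 5.42e-42) and Col20a1 had -2.03 (SE 0.09, adjusted p = 4.27e-42). For 32 against 37 °C, Col23a1 had 1.76 (SE 0.08, adjusted p = 6.45e-44), Col12a1 1.14 (SE 0.07, adjusted p = 6.89e-31) and Col20a1 -1.19 (SE 0.09, adjusted p = 4.17e-23).

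In the slope over 48 h in AM and PM, a test added after seeing the data, the difference was 0.72 for Col1a1 (adjusted p = 1.27e-05), 0.61 for Col1a2 (adjusted p = 1.27e-07), 0.71 for Col3a1 (adjusted p = 6.4e-07) and 0.71 for Col5a1 (adjusted p = 1.31e-06). It was 0.72 for Col6a3 (adjusted p = 7.74e-06), 1.04 for Col14a1 (adjusted p = 0.00171), 1.04 for Col23a1 (adjusted p = 7.62e-08) and 1.13 for Col15a1 (adjusted p = 0.00477). Col11a1 had 0.62 (adjusted p = 0.00593) and Col27a1 0.60 (adjusted p = 0.0119). Over the temperatures Col6a3 had 0.78 (adjusted p = 1.44e-05) and Col20a1 0.59 (adjusted p = 0.000831).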

How the results depend on the processing

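Of the counts of called members, 138 recomputed values stayed within 1.5 times the main count and 22 did not, and of the values of single members called in the level comparisons 536 kept their direction and call, 4 lost the call and 0 changed sign. Calls of rhythm, trend and slope were lost more often, as given above for the libraries left out or kept, and also for Col20a1 in Bmal1-/- rhythm at a pseudocount of 0.1 FPKM, Col4a1, Col4a5 and Col6a1 in that rhythm with equal totals, Col4a1 there also with genes down to a mean of 0.1 FPKM or without the 5 low libraries at 37 °C, and Col27a1 in the AM and PM slope difference with equal totals. With a 1.5-fold limit 16 members were called for genotype in AM and PM, 20 for 27 °C and 9 for 32 °C in WT, 7 in the 32 °C test between genotypes, and 7 and 8 for PM against AM in WT and Bmal1-/-, where 30.2%, 36.7%, 13.4%, 5.61%, 8.21% and 4.79% of all genes were called. At a pseudocount of 0.1 FPKM, PM against AM gave 5 and 4, the Bmal1-/- trend in AM and PM 1 and the WT trend over the temperatures 4. All-gene shares for these counts are not given, so they are not read as a result about the members. Median-of-ratios scaling gave 5 and equal totals 6 for 32 °C in WT, with the all-gene counts given above. Equal totals gave 9 and 11 rhythmic members in WT and Bmal1-/- in AM and PM and 5 in Bmal1-/- over the temperatures, with 13.4%, 8.0% and 12.7% of all genes. With the CT14 libraries kept, rhythm over the temperatures gave 0 in WT and 4 in Bmal1-/-, and the Bmal1-/- trend 1. All-gene shares with that pair kept are not given, so these counts are not read as a result either. 2 further settings were chosen after seeing the data. Without WT PM at CT48, 12 members were rhythmic in WT. Without the 5 low Bmal1-/- libraries at 37 °C, rhythm in WT over the temperatures gave 4, the Bmal1-/- trend 1 and the slope difference 1. All-gene shares for that trend and slope difference are not given, so those counts are not read as a result. The cause of these changes was not tested.

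In the level comparisons the members that lost their call were Col6a2 for genotype in AM and PM with equal totals (0.85), Col20a1 in the 32 °C test between genotypes at a pseudocount of 0.1 FPKM (-0.56), and Col5a2 (0.97) and Col27a1 (0.96) in the 27 °C test without the 5 libraries. With the time point as a replicate block, the level comparisons gave the same counts, 10 for genotype in AM and PM and 10 over the temperatures, 10 and 8 for 27 °C, 3 and 5 for 32 °C, 8 and 3 between genotypes and 2 and 1 for PM against AM, and changed no call. Each time point had 1 library, so no replicate could be left out. FPKM near 0 rest on few reads, so chains under 1 FPKM are the least precise.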

Other observations

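In the pair of libraries at CT14 and 27 °C, left out of all comparisons, the one labelled WT had Col12a1 at 22.5 FPKM, Col23a1 at 0.3149 and Col6a3 at 4.497, and the one labelled Bmal1-/- had 43.35, 1.015 and 31.4. Of the collagen chain genes under the minimum, Col6a6 had a highest course mean of 0.3931 FPKM, Col4a3 of 0.3406, Col4a4 of 0.2922, Col22a1 of 0.1181 and Col9a2 of 0.1014. Col26a1, Col10a1, Col13a1, Col25a1 and Col19a1 had 0.06473, 0.04796, 0.03588, 0.02748 and 0.01897.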
